A study of Mus musculus with 6 samples.

Results

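Chaperonins are large double-ring ATPases that enclose an unfolded protein and let it fold. The cytosolic chaperonin TRiC (also called CCT) is built from 8 different, related subunits, and it folds actin, tubulin and a set of propeller-shaped proteins, among them cell cycle regulators, that do not fold well without it. The mitochondrial chaperonin is built from a single subunit, HSP60 (Hspd1), closed by a lid of HSP10 (Hspe1), and folds proteins imported into the mitochondrial matrix. Chaperonin genes are strongly expressed in growing cells, leukemia cells included.

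The 10 genes described here were chosen by name from the 55487 genes of the table: the 8 TRiC subunit genes Tcp1, Cct2, Cct3, Cct4, Cct5, Cct6a, Cct7 and Cct8, and the mitochondrial pair Hspd1 and Hspe1. All 10 passed the filter on low counts (a mean normalized count of at least 10), which left 15020 genes for testing. MLL-AF9 is a fusion oncogene that causes acute myeloid leukemia in mice. Leukemic CD45.2+ marrow cells that carried it on a retroviral construct with GFP, on an Mx1-Cre;Brd9fl/fl background, were given at 1000 cells to irradiated CD45.1+ C57BL/6 mice. The recipients then had 3 injections of PBS or of pIpC (20 mg/kg), a synthetic double-stranded RNA. It triggers interferon, to which the Mx1 promoter of the Cre gene responds. Both groups carry the same alleles and differ in the injection. The interferon response to pIpC and the loss of Brd9 cannot be told apart in this design. Bone marrow was collected 10 days after injection, and 3 libraries labelled PBS and 3 labelled pIpC were sequenced. The labels describe GFP+ cells and unstranded libraries. The study's methods describe sorted mouse cells as lineage-negative (without markers of mature blood cells) and c-Kit+, with stranded libraries. Its results text describes c-Kit+ marrow cells for the leukemia. For the irradiation, the labels give 2 fractions of 450 cGy and the study's methods a sublethal 450 cGy. Nothing states whether the libraries of a group came from different mice, so that p-values measure the spread between these libraries.

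Brd9, the bromodomain subunit of the non-canonical BAF chromatin remodelling complex and the gene that pIpC was meant to delete, had normalized counts of 1926.8, 1946 and 1632 in the PBS libraries and 2036, 2263 and 2011 in the libraries labelled pIpC. The groups did not overlap, and the libraries labelled pIpC were the higher ones, against the label (log2 fold change 0.20, SE 0.13, limma adjusted p = 0.259; exact two-sided permutation p = 0.1, the smallest that 3 against 3 libraries allow). The count covers the whole gene and not only the deleted exons. The 6 libraries held between 19277439 and 23586722 reads on genes, and every chaperonin gene had between 1061 and 10386 reads per library, so that counting error was at most 3.1% of a value. PBS replicate 3 stood apart from the other PBS libraries by transcript length. Its median ratio to the mean of the other PBS libraries was 1.87 for the 2000 genes with transcripts of up to 1000 bases, 1.52 for transcripts over 1000 and up to 2000 bases, 1.12 for those up to 3000 bases and 0.754 above 3000 bases.

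RNA of cell type markers also differed between the groups. Summed normalized counts of 13 neutrophil markers ranged from 74624 to 152501 in the PBS libraries and from 2218529 to 2302943 in those labelled pIpC, with 12 of 13 markers past the test. Erythroid markers (11 of 11 tested higher) summed to between 1858 and 3084 against between 7766 and 9852, and Slc4a1 was at 0 in every PBS library. B cell markers (12 of 12 higher) summed to between 145.8 and 308.9 against between 1687 and 3088, with Ms4a1 at 0 in the PBS libraries, and T and NK cell markers (6 of 6 tested higher) to between 13.2 and 25.1 against between 240.8 and 264.6, with Prf1 at 0 there. Of 9 macrophage markers tested, 5 were higher and 3 lower, and the sum was between 12646 and 16758 against between 8196 and 9732 (Marco was at 0 in the PBS libraries). Of 8 genes of the MLL-AF9 leukemia program, 5 were lower and 2 higher, among them Hoxa9, a transcription factor of that program, with a log2 fold change of -4.32 (SE 0.13, limma adjusted p = 1.27e-05). Kit, the receptor by which the methods say the cells were sorted, had 7764, 7119 and 3912 normalized counts in the PBS libraries and 4156, 4341 and 4588 in those labelled pIpC, with overlap. The part of these marker differences in the chaperonin results was not tested. A sort for GFP, or for lineage-negative c-Kit+ cells, as described, would be meant to leave out mature blood cells of the recipient. The libraries are pools of cells, in which fewer cells of a type and less RNA per cell cannot be told apart.

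Sequence from the promoters of 4 members is shown because it carries the motifs counted in the promoter section, with the motif in capitals, 5′ to 3′ on the strand of the named gene, from RefSeq on GRCm38.p6. The Cct2 stretch, chr10:117063891-117063967 on the minus strand, held 4 GC boxes, the Cct3 stretch, chr3:88297000-88297115 on the plus strand, held 1 GC box and 2 CCAAT boxes, and the 2 shorter stretches come from the mitochondrial pair, each before the start of its own gene and within annotated exons of the locus. They are Hspe1 at chr1:55088053-55088082 on the plus strand with a heat shock element core and Hspd1 at chr1:55088306-55088335 on the minus strand with an E-box.
Cct2: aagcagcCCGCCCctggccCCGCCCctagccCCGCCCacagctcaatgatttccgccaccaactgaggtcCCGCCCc
Cct3: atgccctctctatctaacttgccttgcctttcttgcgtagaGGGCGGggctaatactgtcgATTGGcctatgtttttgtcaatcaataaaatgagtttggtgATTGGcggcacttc
Hspe1: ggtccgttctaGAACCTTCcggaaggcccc
Hspd1: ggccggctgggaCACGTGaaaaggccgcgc

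All 8 TRiC subunit genes had a lower mean in the libraries labelled pIpC, and 2 of them, Cct2 and Cct4, fell past the threshold (limma adjusted p under 0.1, adjusted over all genes tested). Over the table, 45.3% of the genes tested passed that threshold, 20.4% lower and 25% higher, so that 2 of 8 subunits is a share near the background. The median log2 fold change was -0.51 for the 8 subunits and 0.01 for all genes tested. In 5 of 8 subunits (Tcp1, Cct2, Cct4, Cct5 and Cct7) every library labelled pIpC lay below every PBS library, as in 26.3% of all genes tested. Neither mitochondrial chaperonin gene passed the test, and their median was -0.35, or -0.04 with the transcript length trend removed.

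Cct4, the delta subunit, on chromosome 11 from 22990519 to 23003780 on the plus strand, gave the largest fall. Its normalized counts were 5693, 6021.5 and 9310.2 in the PBS libraries, against 4580.1, 3848 and 3807 in the pIpC ones. The means were 7008 ± 2000 and 4078 ± 435 (SD, n = 3 each), and the lowest PBS library was above the highest library labelled pIpC. The fold was 0.595, a log2 fold change of -0.75 (95% interval -1.26 to -0.24, limma adjusted p = 0.0325). Without pIpC replicate 2, or without pIpC replicate 3, the adjusted p rose to 0.119, at log2 fold changes of -0.71 and -0.70.

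Cct2, the beta subunit, on chromosome 10 from 117051001 to 117063814 on the minus strand, was the other subunit that fell. It had 6744, 7145 and 9826 normalized counts in the PBS libraries and 6134, 5269.9 and 5513 in the libraries labelled pIpC, with no overlap. Means were 7905 ± 1676 (SD, n = 3) and 5639 ± 446 (SD, n = 3), a fold of 0.722 and a log2 fold change of -0.47 (95% interval -0.89 to -0.05, limma adjusted p = 0.079). Its call was lost under 9 of 19 alternatives, where its adjusted p ran from 0.0790 (at a threshold of 0.05) to 0.235.

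Tcp1, the alpha subunit that gave the complex its name, lies on chromosome 17 from 12915701 to 12925067 on the plus strand. Its normalized counts were 5342, 5777 and 7195 in the PBS libraries and 5237, 4358.5 and 4466 in the libraries labelled pIpC. The groups were separate by a small margin, and the change was -0.37 on the log2 scale (95% interval -0.75 to 0.002, limma adjusted p = 0.109).

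Cct5, the epsilon subunit, and Cct7, the eta subunit, moved alike over the libraries. Cct5, on chromosome 15 from 31590800 to 31601804 on the minus strand, had 5699, 6352.5 and 11753.5 normalized counts in the PBS libraries and 5536, 4659 and 4647 in those labelled pIpC. Cct7, on chromosome 6 from 85451514 to 85468475 on the plus strand, had 5085, 5498 and 10104.6 against 4803, 3799.7 and 3993. In both genes PBS replicate 3 held almost as many counts as replicates 1 and 2 together, and the lowest PBS library was only just above the highest library labelled pIpC. The log2 fold changes were -0.61 for Cct5 (95% interval -1.27 to 0.06, limma adjusted p = 0.134) and -0.65 for Cct7 (95% interval -1.30 to 0.002, limma adjusted p = 0.109).

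Cct3, the gamma subunit, on chromosome 3 from 88297116 to 88321767 on the plus strand, had 3578, 4209.7 and 7039 normalized counts in the PBS libraries and 3756, 2952 and 3053 in the libraries labelled pIpC. The groups overlapped, since pIpC replicate 1 was above PBS replicate 1. Its log2 fold change was -0.55 (95% interval -1.17 to 0.08, limma adjusted p = 0.148).

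Cct6a (zeta) and Cct8 (theta) had the smallest differences of the 8 subunits. Cct6a, on chromosome 5 from 129786998 to 129846371 on the plus strand, had 4122, 4796 and 5174 normalized counts in the PBS libraries and 4991, 4035 and 4077 in those labelled pIpC, a log2 fold change of -0.11 (95% interval -0.46 to 0.25, limma adjusted p = 0.605). Cct8, on chromosome 16 from 87483326 to 87495873 on the minus strand, had 5193, 6082 and 7619.5 against 5998, 4530.2 and 4600, a log2 fold change of -0.32 (95% interval -0.77 to 0.14, limma adjusted p = 0.239). In both genes pIpC replicate 1 lay above PBS replicate 1. The Cct6a difference turned to 0.03 (adjusted p = 0.842) when each library's trend with transcript length was removed.

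Hspd1, the HSP60 subunit, and Hspe1, the HSP10 lid, lie head to head on chromosome 1, Hspd1 from 55077835 to 55088243 on the minus strand and Hspe1 from 55088132 to 55091307 on the plus strand, with starts 111 bases apart. Hspd1 had 5054, 6248 and 7228 normalized counts in the PBS libraries and 6491, 4803 and 4802 in the libraries labelled pIpC, and Hspe1 had 1167, 1501 and 3399.5 against 1627, 1084 and 1179. Both overlapped between groups, with pIpC replicate 1 between the PBS libraries. The log2 fold changes were -0.20 for Hspd1 (95% interval -0.66 to 0.26, limma adjusted p = 0.44) and -0.51 for Hspe1 (95% interval -1.45 to 0.44, limma adjusted p = 0.355), and these intervals leave room for a change of either sign. PBS replicate 3 had an Hspe1 count 2.55 times the mean of the other PBS libraries, the largest such ratio of the 10 genes. The ratio of Hspe1 to Hspd1 counts was 0.47 in that library and between 0.226 and 0.251 in the other 5.

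**Figure D1:**
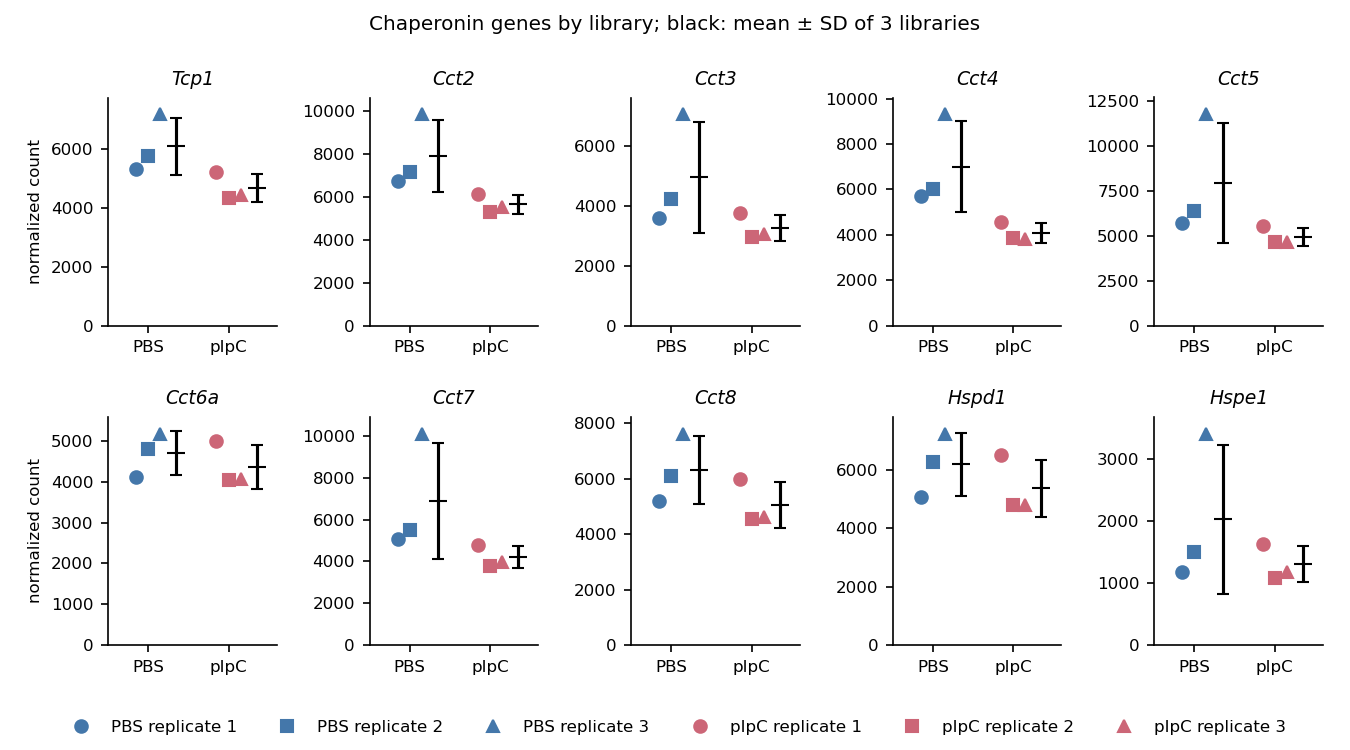
Normalized counts (vertical axes, from 0) of the 10 chaperonin genes in each PBS (blue) and pIpC-labelled (red) library, with marker shape for the replicate and black bars for the mean ± SD of 3 libraries. PBS replicate 3 (blue triangle) is the highest of the PBS libraries in every panel and pIpC replicate 1 (red circle) the highest of the pIpC-labelled ones, and the groups are separate for Tcp1, Cct2, Cct4, Cct5 and Cct7.

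The 10 genes ranked the libraries in the same way. In each of them PBS replicate 1 was lowest and PBS replicate 3 highest of the PBS libraries, an order found in 25.6% of all genes tested, and pIpC replicate 1 was the highest of the libraries labelled pIpC, as in 35.9% of genes, with both together in 13.6%. The ratio of PBS replicate 3 to the mean of the other PBS libraries ran from 1.16 for Cct6a and 1.28 for Hspd1 to 1.91 for Cct7, 1.95 for Cct5 and 2.55 for Hspe1. The ratio of pIpC replicate 1 to the mean of the other pIpC libraries ran from 1.14 for Cct2 to 1.44 for Hspe1. The spread between libraries of one group was therefore as large as many of the differences between groups. The transcripts of the 10 genes are 774 (Hspe1) to 2484 (Cct4) bases long, in the range in which PBS replicate 3 read above the other PBS libraries. Hspe1, with the shortest, had the largest ratio, and Cct4, with the longest, had 1.59. Cct6a (2454 bases) and Cct7 (2441 bases) are close in length and had ratios of 1.16 and 1.91. The part of transcript length in these ratios was not tested.

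Leaving out PBS replicate 3 made the fold changes smaller and the groups tighter. Then 6 of 8 subunits were past the threshold, all lower, beside 30.6% of all genes tested. Cct4 had a log2 fold change of -0.53 (limma adjusted p = 0.000937), Cct7 -0.34 (0.0174), Cct2 -0.30 (0.00916), Cct5 -0.29 (0.0253), Cct3 -0.26 (0.0763) and Tcp1 -0.25 (0.0381). The other 4 genes did not pass the threshold, at -0.17 for Cct8, -0.08 for Hspd1, -0.05 for Hspe1 and -0.03 for Cct6a. The median of the 8 subunits was -0.28 there. Without PBS replicate 1 the count was also 6 (19.9%), and without pIpC replicate 2 or pIpC replicate 3 it was 0 (beside 12.4% and 12.7% of all genes tested). It was 1 without PBS replicate 2 (17.6%) and without pIpC replicate 1 (14%). With all 6 libraries, 1 subunit was lower past the threshold with no filter on low counts (11.5% of all genes lower), with no intensity trend (19.2%), with the GC trend removed (19.2%), with a replicate block (18%) and at an adjusted p under 0.05 (14.8%), 3 were with edgeR (22.2%), 4 with the transcript length trend removed (23%) and 6 with quantile normalization (27.2%) or DESeq2 (24.2%). Cct4 was among the lower genes in each of these settings but the pair that left out pIpC replicate 2 or 3.

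**Figure D2:**
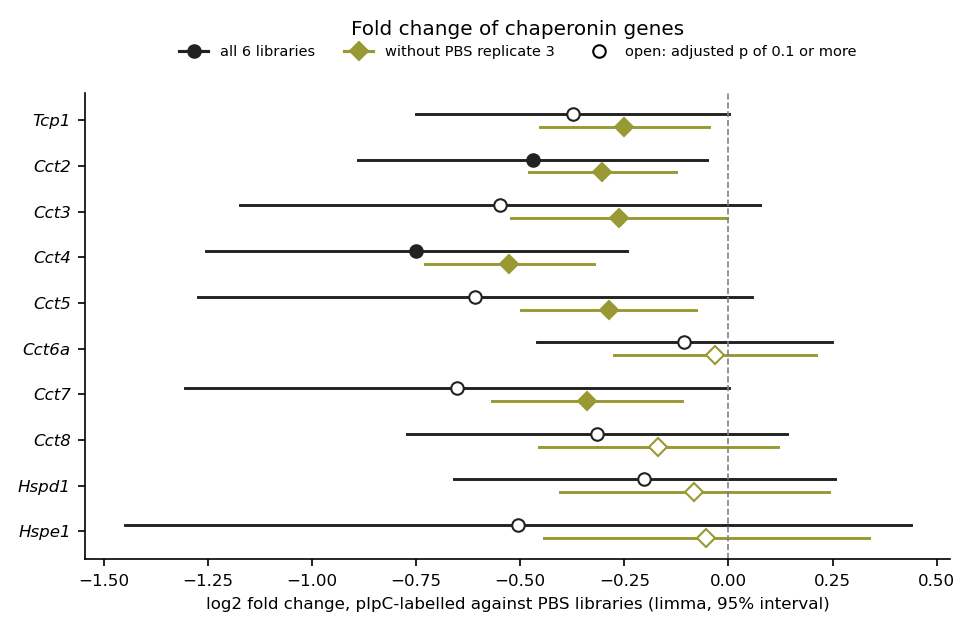
Log2 fold change of each chaperonin gene in the pIpC-labelled against the PBS libraries (horizontal axis) with its 95% interval, from all 6 libraries (black circles) and without PBS replicate 3 (olive diamonds); filled symbols passed a limma adjusted p of 0.1. Cct2 and Cct4 passed with all libraries and 6 subunits without PBS replicate 3, while Cct6a, Cct8, Hspd1 and Hspe1 passed in neither.

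Within a library, the share of each subunit in the summed counts of the 8 does not depend on the library's scale. It does depend on differences of a library that vary between genes, as in PBS replicate 3. How often shares within other sets of genes separate the groups was not tested. The sum itself was 41456, 45882 and 68022 normalized counts in the PBS libraries and 41035, 33451 and 34155 in the libraries labelled pIpC. The Cct4 share was 13.73%, 13.12% and 13.69% in the PBS libraries and 11.16%, 11.5% and 11.15% in those labelled pIpC, and the groups did not overlap. The Cct6a share went the other way, at 9.94%, 10.45% and 7.61% against 12.16%, 12.06% and 11.94%, again without overlap. Cct8 also held a larger share in the libraries labelled pIpC (12.53%, 13.26% and 11.2% against 14.62%, 13.54% and 13.47%) and Cct7 a smaller one (12.27%, 11.98% and 14.85% against 11.7%, 11.36% and 11.69%), both by narrow margins. The shares of the other 4 subunits overlapped. The shares within a library add to a fixed total, so that they are not independent of each other.

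Cct4 over Cct6a, the subunits with the largest and the smallest difference, was 1.38, 1.26 and 1.80 in the PBS libraries and 0.918, 0.954 and 0.934 in those labelled pIpC. This pair was chosen after its values were seen, and no test is given. In PBS replicate 3, Cct5 (17.28%) and Cct7 held larger shares than in the other PBS libraries and Tcp1 (10.58%) and Cct6a smaller ones, and the Cct4 share lay between theirs.

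**Figure D3:**
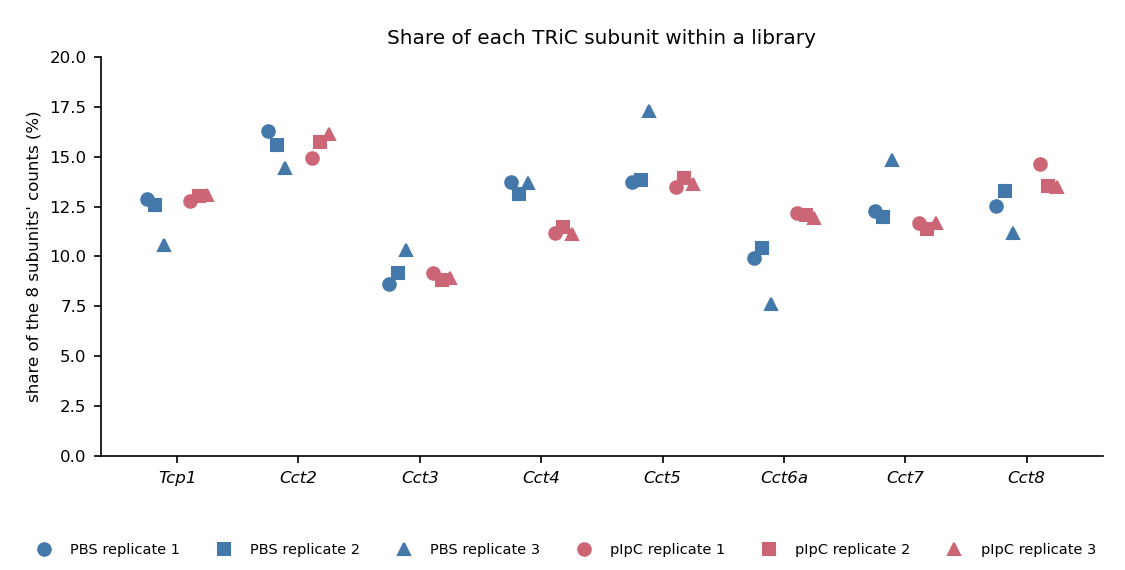
Share of each TRiC subunit in the summed normalized counts of the 8 subunits (vertical axis, percent) in each PBS (blue) and pIpC-labelled (red) library, with marker shape for the replicate. The Cct4 points lie at 13.12% to 13.73% in PBS and 11.15% to 11.5% in pIpC-labelled libraries, the Cct6a points are higher in the pIpC-labelled ones, and PBS replicate 3 (blue triangles) lies apart from the other PBS libraries for Cct5, Cct6a and Cct7, among others.

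Levels of different subunits can be set side by side only per length of transcript. Per kilobase of the longest transcript without retained introns, Cct5 and Cct2 were highest in the PBS libraries, at 4282 ± 1790 and 4035 ± 855 normalized counts per kilobase (SD, n = 3), and Cct2 and Cct5 in those labelled pIpC, at 2878 ± 228 and 2670 ± 275. Cct6a was lowest in the PBS libraries, at 1914 ± 217, and Cct4 in the libraries labelled pIpC, at 1642 ± 175, having been the fourth of 10 in the PBS libraries at 2821 ± 805. Neighbours in either order overlapped in their libraries, except Tcp1 and Cct6a at the end of the PBS order. The highest subunit was 2.24 times the lowest in the PBS libraries and 1.75 times in those labelled pIpC. By the longest annotated transcript, a retained intron for Tcp1, Cct3, Cct7 and Hspe1, the ratios were 2.89 and 2.95, and Cct3 was the lowest gene in both groups. Subunits of a complex with 1 copy of each per ring thus had transcript levels within a few fold of each other, in an order that the choice of transcript changes.

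Over the 6 libraries the log2 values of Cct5 and Cct7 had a Pearson r of 0.997 and those of Cct6a and Hspd1 one of 0.994, while Cct4 and Cct6a had the lowest of the TRiC pairs, 0.697. All these points share the group difference and PBS replicate 3, and no p is given. The genes outside the 10 whose log2 values followed the mean of the 8 subunits most closely were Pa2g4 (r = 0.9994), a growth-related RNA-binding protein, Kars (0.999), the lysyl-tRNA synthetase, Snu13 (0.9989), a protein of the spliceosome and of box C/D snoRNPs, Hnrnpc (0.9987), a pre-mRNA binding protein, and Nop16 (0.9983), a nucleolar ribosome assembly factor. Of these 5, Nop16 was past the threshold, with a log2 fold change of -0.89 (limma adjusted p = 0.0744). Myc, the transcription factor that drives growth genes, had 2667, 2582 and 4145 normalized counts in the PBS libraries and 1834, 1727 and 1670.0 in those labelled pIpC, and fell by 0.81 on the log2 scale (SE 0.20, limma adjusted p = 0.0193). As in the chaperonin genes, PBS replicate 3 held the highest Myc count.

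Promoter sequence was in the RefSeq table for 9 of 10 genes (all but Cct4), in 12 windows of 300 bases from 250 before to 50 after a start site. A GC box, GGGCGG on either strand, was found in 9 of 9 genes, beside 38.2% of the 27025 genes in the table. The Cct2 stretch printed above shows 4 of its copies. A CCAAT box, on either strand, was found in 5 of 9 (Tcp1, Cct3, Cct6a, Cct7 and Hspd1), beside 41.1% of genes, and the Cct3 stretch holds 2. The E-box CACGTG, the sequence bound by MYC with MAX, was found in 1 of 9, Hspd1, 80 bases before its start, beside 8.09% of genes. The heat shock element core GAANNTTC was found in 3 of 9 (Cct2, Hspd1 and Hspe1), beside 9.04% of genes. The Cct2 match lies 42 bases before an internal RefSeq start of Cct2 at 117063375, outside the stretch printed above. The Hspd1 and Hspe1 matches are the same bases read from opposite strands. They lie 84 bases before the RefSeq start of Hspe1 at 55088148, inside the annotated Hspd1 gene, and before a second, internal RefSeq start of Hspd1 at 55087932, not before the Hspd1 start at 55088243. Both palindromic motifs match on both strands at once and were counted once. A match is letters in a window and not a shown binding site.

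Among 12 tested genes for proteins that work with TRiC, 9 had a negative and 3 a positive log2 fold change. Of 12 tested helpers (prefoldin, which hands nascent chains to TRiC, prefoldin-like proteins and phosducin-like cofactors), 3 fell and none rose, beside 20.4% lower and 25% higher over all genes tested, with a median log2 fold change of -0.35. Those were Pfdn4, a prefoldin subunit (-0.83, adjusted p = 0.0545), Pdrg1 (-0.77, adjusted p = 0.0752) and Uri1 (-0.42, adjusted p = 0.0449), both of the prefoldin-like complex. Vbp1, the prefoldin alpha-type subunit also called prefoldin 3, had a log2 fold change of 0.12 (limma adjusted p = 0.535). With the transcript length trend removed the median of these helpers was -0.07, with 3 higher and 3 lower past the threshold. All genes tested then stood at 30.5% higher and 23% lower. Without PBS replicate 3 the median of these helpers was -0.04. There 3 were higher and 4 lower past the threshold, beside 34.5% higher and 30.6% lower over all genes tested. Without pIpC replicate 2 or 3 no helper passed, beside 12.4% and 12.7% of all genes lower.

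TRiC clients, the proteins it folds, went in both directions. Of 24 tested, 8 rose and 2 fell, beside 25% higher and 20.4% lower over all genes tested, with a median of 0.23. Without PBS replicate 3, 17 were higher and 2 lower past the threshold, with a median of 0.39 (34.5% and 30.6% over all genes). Without pIpC replicate 1, 2 or 3 no client was lower, beside 14%, 12.4% and 12.7% of all genes. Gnb4, a G protein beta subunit, rose by 3.87 (adjusted p = 9.51e-05), from between 6.1 and 8.1 normalized counts to between 102.8 and 131.5, Mlst8, the propeller subunit of the mTOR complexes, by 1.82 (adjusted p = 0.00193) and Plk1, a mitotic kinase, by 0.93 (adjusted p = 0.0165). The 2 that fell were beta-tubulins, Tubb2a (-0.49, adjusted p = 0.0607) and Tubb5 (-0.44, adjusted p = 0.0839). Of the most abundant clients, Actb (beta-actin) had 56187, 57556 and 103652.7 normalized counts in the PBS libraries and between 105042 and 111209 in those labelled pIpC (0.64, limma adjusted p = 0.13), and Tuba1b (alpha-tubulin) had a log2 fold change of -0.22 (limma adjusted p = 0.46). Neutrophil genes were far higher in the same libraries, and their part in these client values was not tested. Of the 4 chaperonin-like genes tested, Bbs12, part of the complex that assembles the BBSome, fell (-0.78, limma adjusted p = 0.0227), and Cct6b, the testis-enriched zeta subunit, had between 6.1 and 18.1 normalized counts per library (-0.66, limma adjusted p = 0.22).

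Around the mitochondrial chaperonin, 5 of 22 genes for folding, import and proteolysis fell and 1 rose. These counts stand beside 20.4% lower and 25% higher over all genes tested, and the median of the 22 genes was -0.24. Among the genes past the threshold, the largest falls were in Tomm20, an import receptor of the outer membrane (-1.07, limma adjusted p = 0.0165), Hscb, a co-chaperone of iron-sulfur cluster assembly (-0.89, limma adjusted p = 0.0627) and Dnaja3, a co-chaperone of mitochondrial HSP70 (-0.36, limma adjusted p = 0.0629), and Yme1l1, an inner membrane protease, rose by 0.28 (limma adjusted p = 0.0997). Hspa9, the mitochondrial HSP70 that passes imported proteins to HSP60, had 4271, 4574 and 4729 normalized counts in the PBS libraries and 4837, 3938 and 4159 in the libraries labelled pIpC, with overlap (-0.07, limma adjusted p = 0.677). Without PBS replicate 3 the median of this list was 0.003. There 4 genes were higher and 6 lower past the threshold, beside 34.5% higher and 30.6% lower over all genes tested. Without pIpC replicate 2 or 3 the list had 1 gene lower and none higher, beside 12.4% and 12.7% of all genes lower.

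In the other chaperone lists, the genes past the threshold with all 6 libraries were mostly lower. Over all genes tested, 20.4% were lower and 25% higher past it. Of 24 genes of the cytosolic HSP70 and HSP90 system, 6 fell and 1 rose (median -0.29), among them Hspa8, the constitutive HSP70 (-0.96, limma adjusted p = 0.0356), Hsph1, its nucleotide exchange factor (-0.67, limma adjusted p = 0.0561), and Ppid, an HSP90-bound cyclophilin (-0.65, limma adjusted p = 0.00914), whereas Fkbp5, an HSP90 immunophilin induced by glucocorticoids, rose by 0.65 (limma adjusted p = 0.0045) and Hsp90ab1 was at -0.12 (limma adjusted p = 0.591). Of 4 genes of the R2TP complex, which assembles large complexes with HSP90, 2 fell, Ruvbl1 (-0.77, limma adjusted p = 0.0673) and Rpap3 (-0.76, limma adjusted p = 0.0189). Of 15 chaperones of the endoplasmic reticulum, 2 fell, Calr (-0.88, limma adjusted p = 0.0292) and Dnajb9 (-0.44, limma adjusted p = 0.0712), with a median of -0.10. In this list 7 genes had a positive and 8 a negative log2 fold change. Without PBS replicate 3 the endoplasmic reticulum list had 4 higher and 3 lower and a median of 0.06, and without pIpC replicate 2 or 3 none passed. In the HSP70 and HSP90 list, the median without PBS replicate 3 was -0.10, with 3 higher and 10 lower, and without pIpC replicate 2 or 3 it had 1 higher and 1 lower, while the R2TP median without PBS replicate 3 was -0.27. Of 7 tested heat shock factors and inducible genes, 4 fell and none rose (median -0.88): Hsf2 (-1.10, limma adjusted p = 0.00308), Dnajb4 (-0.92, limma adjusted p = 0.00951), Bag3 (-0.74, limma adjusted p = 0.0207) and Hsf1, the main heat shock factor (-0.34, limma adjusted p = 0.0772). The median of these 7 genes is the value of Hspa1b, a heat-inducible HSP70 that did not pass the test and had its highest count in PBS replicate 2. Without that library the median was -0.36, with 3 lower past the threshold. Without PBS replicate 3 it was -0.98, with 1 higher and 4 lower past the threshold. Hsf2 had between 384.8 and 424.1 normalized counts in the PBS libraries, PBS replicate 3 included, and between 166.3 and 227.6 in those labelled pIpC. The shares over all genes tested were 30.6% lower and 34.5% higher without PBS replicate 3, and 17.6% lower without PBS replicate 2. They were 12.4% lower and 18.6% higher without pIpC replicate 2, and 12.7% lower and 18.9% higher without pIpC replicate 3.

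**Figure D4:**
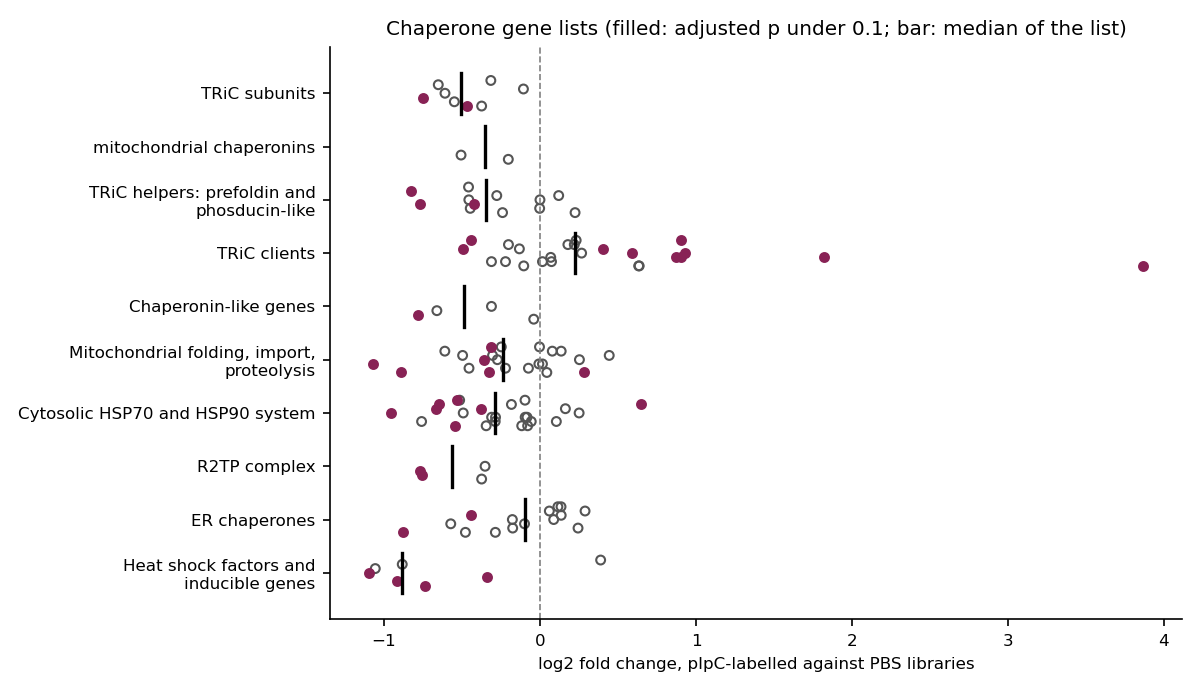
Log2 fold change (horizontal axis) of each tested gene of the chaperonin and chaperone lists in the pIpC-labelled against the PBS libraries, 1 point per gene, filled where the limma adjusted p was under 0.1, with a bar at the median of the list. The medians lie at -0.51 for TRiC, -0.35 for the mitochondrial pair, 0.23 for TRiC clients and -0.88 for heat shock factors and inducible genes, the last of which was -0.36 without PBS replicate 2.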

How the data were processed

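The authors deposited normalized counts, a signal made of gene counts divided by 1 size factor per library. The study's methods name nf-core/rnaseq with STAR and RSEM on mm10 and DESeq2, whereas the submitters' processing notes name HISAT2 2.2.1, SAMtools, featureCounts and edgeR on GRCm38. Every deposited value (100%) gave a whole read number within a tolerance of 0.02, so that reads were recovered. No column was left out. With no strand known, reads in overlaps of opposite genes cannot be told apart.

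limma (version 3.58.1, R 4.3.3, intensity trend) was run on log2(normalized count + 1), which understates changes of low genes, for 15020 genes with a mean of at least 10, at a Benjamini-Hochberg adjusted p under 0.1, without a replicate block. All p-values called adjusted are from this fit unless another tool is named, and are adjusted over all genes tested. Alternatives were pseudocounts of 0.1 and 10, no low-count filter or a minimum mean of 50, quantile normalization, median-centring, each library left out, a replicate block, no intensity trend, edgeR (4.0.16) and DESeq2 (1.42.0) on recovered reads, and a threshold of 0.05. Removal of each library's transcript length or GC trend, and transcripts without retained introns, were added after the data were seen. Scripts were tested on simulated data. Lengths came from GENCODE on GRCm38, promoters from RefSeq (GRCm38.p6). Protein sequences were not analysed here.

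The members and lists were chosen with earlier results of these data known. Named are all 10 genes, Brd9, Myc, up to 3 genes past the threshold in each direction per list, known partners of the members, and the 5 genes most correlated with TRiC. Hoxa9, Kit and the markers at 0 were named after their values were seen. One erythroid marker was not matched. No pair of libraries of a group differed by less than the sampling noise (chi-square per gene at least 6.83).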

Additional observations from a re-analysis of the deposited data

How the results depend on the processing

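Of 190 repeats of the 10 genes' tests, 159 kept direction and side of the threshold, 19 passed it in addition, 11 fell short of it and 1 changed direction, Cct6a at 0.031 without the transcript length trend. Most of the 159 were genes that passed neither in the main fit nor in the repeat. Of the genes called in the main fit, Cct2 kept its call in 10 repeats and lost it in 9. Cct4 kept its call in 17 and lost it in 2. Past the threshold were 2 TRiC subunits; the count was 1 with no filter on low counts, with no intensity trend, with the GC trend removed and at an adjusted p under 0.05, 4 with the transcript length trend removed, 6 with quantile normalization, which moved the median of all genes to -0.12, and 6 with DESeq2. With 1 library left out it ran from 0 to 6. The mitochondrial pair gave 0 of 2 under every alternative. The cause of these moves was not tested. Leaving out 1 library gave 4650 to 9783 genes changed over the table (6808 with all), 0 to 7 TRiC helpers, 6 to 19 TRiC clients, 1 to 10 mitochondrial folding genes, 2 to 13 genes of the HSP70 and HSP90 system, 1 to 2 of R2TP, 0 to 7 ER chaperones and 3 to 5 heat shock genes. The replicate numbers share a number only: the correlations of same-numbered libraries' deviations were -0.117, 0.143 and 0.0405, and 2 of 6 libraries correlated best with their own number. With the replicate block 6095 genes passed, 1 TRiC subunit (Cct4, -0.75, adjusted p = 0.0589), 2 mitochondrial folding genes, 4 of the HSP70 and HSP90 system and 1 ER chaperone. Brd9 had a log2 fold change of 0.34 (adjusted p = 0.09) with the transcript length trend removed, and 0.12 to 0.24 with 1 library left out. By the union of exons the highest TRiC subunit was 3.98 (PBS) and 4.32 (pIpC) times the lowest per kilobase, against 2.24 and 1.75 without retained introns. Counting error is small at these depths, and 3 libraries a group limit the tests.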

Other observations

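Several chaperonin genes share a start region with an opposite gene, and the counts of these neighbours are given as values. Mrpl18, a mitochondrial ribosomal protein gene whose start lies 644 bases from that of Tcp1 and which overlaps it, had 1044, 1054 and 2255 normalized counts in the PBS libraries and 1317, 1141 and 1149 in those labelled pIpC. Psph, the serine synthesis phosphatase opposite Cct6a, had 334.8, 350.2 and 630.3 against 302.4, 284.0 and 263.0, and Pradc1, opposite Cct7, had 274.3, 307.7 and 662.0 against 290.4, 218.6 and 259.2. Fam173b, opposite Cct5 with starts 48 bases apart, had 417.0, 385.6 and 434.6 against 281.4, 348.4 and 315.2. PBS replicate 3 was the highest library for these 4 and the groups overlapped for Mrpl18 and Pradc1. The other divergent neighbours had few counts. Tsacc, opposite Cct3, had 21.6, 33.4 and 41.9 against 9.98, 5.11 and 22.2, and B130034C11Rik, opposite Cct8, had 18.2, 23.3 and 4.53 against 11.0, 14.3 and 28.04, with PBS replicate 3 the lowest library.

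Processed pseudogenes of Tcp1, Cct3, Hspd1 and Hspe1 are in the table under their own names. The summed reads of those named after a member were at most 0.651% of the reads of the parent gene in any library. That share was reached for Hspd1, where Hspd1-ps3 alone had between 24 and 39 reads. Pseudogenes under other names were not counted.

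The 2 heat-inducible HSP70 genes had 1 library that stood apart. Hspa1a had 47.6, 501 and 91.7 normalized counts in the PBS libraries and 90.8, 63.3 and 41.6 in those labelled pIpC, and Hspa1b had 63.2, 1124.5 and 217.3 against 197.6, 124.6 and 99.6. PBS replicate 2 was the highest library for both, whereas PBS replicate 3 was the highest for each of the 10 chaperonin genes.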
